A study of Mus musculus with 6 samples.

Results

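Mitochondrial ribosomal protein genes were defined as the protein-coding genes of the deposited table whose symbols start with Mrpl or Mrps followed by a number, here called the Mrp genes. The rule found 78 of the 55536 genes in the table, 49 with an Mrpl and 29 with an Mrps symbol, and it used no measured value. The Mrp proteins are made in the cytosol from nuclear genes, imported into mitochondria and assembled with ribosomal RNA encoded by mitochondrial DNA. The finished mitochondrial ribosome, or mitoribosome, translates the few messenger RNAs of mitochondrial DNA, which encode core subunits of the respiratory chain and of ATP synthase. T cells enlarge their mitochondria and raise mitochondrial translation after activation. Mrpl symbols name proteins of the large and Mrps symbols proteins of the small subunit, with a few exceptions: MRPS18A and MRPS30 sit in the mammalian large subunit, and MRPS36 is now counted as a component of the 2-oxoglutarate dehydrogenase complex.

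The study measured polyadenylated RNA of CD4+ T cells from C57BL/6 mice with the 2D2 transgene, a T cell receptor that recognises a peptide of myelin oligodendrocyte glycoprotein (MOG). HDAC1-cKO cells were 2D2-Hdac1fl/fl-Cd4-Cre+, in which the Cd4 promoter drives Cre recombinase from a thymic stage onward, which deletes the floxed alleles of the histone deacetylase gene Hdac1; cells before transfer were not measured. WT cells were 2D2-Hdac1fl/fl-Cd4-Cre- and carried the same receptor and the same floxed alleles. Naive cells were injected into CD45.1+ recipients, and MOG peptide in complete Freund's adjuvant followed in the footpad after 18 hours. Donor 2D2+ CD4+ cells were sorted from popliteal lymph nodes 4 days later, 500 cells per library, with 2 mice pooled per replicate and 3 replicates per genotype. The labels give no ages.

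Total counts were 19956153 to 36307610 in the HDAC1-cKO libraries and 39036751 to 55900237 in the WT libraries. Hdac1 stood at 17.2, 14.7 and 15.4 CPM (read counts scaled to library size) in HDAC1-cKO replicates 1, 2 and 3, against 234.5, 235.6 and 243.7 CPM in WT replicates 1, 2 and 3. All 12 T cell markers were detected. Their summed level, mostly Trbc2, was 25590, 34770 and 26460 CPM in HDAC1-cKO replicates 1, 2 and 3 and 29890 to 35850 CPM in WT. Only HDAC1-cKO replicate 2 thus overlapped the WT libraries. With all libraries Cd3e and Cd2 were called lower, against 0.992% of all genes. Without HDAC1-cKO replicate 2, 6 of the 12 were called lower, against 2.28% of all genes, and 0 had a positive fold change. Of 10 myeloid and dendritic cell markers, 4 passed the filter on low counts and 4 (Csf1r, Flt3, Clec9a and Cd14) were at 0 in every library. The summed level of these 10 was 6.13 to 8.25 CPM in HDAC1-cKO and 16.4 to 36.0 CPM in WT. The 6 B cell markers summed to 35.4 to 72.2 CPM in HDAC1-cKO and 20.7 to 43.4 CPM in WT. The 3 NK cell markers summed to 0.686 to 2.60 CPM in HDAC1-cKO and 2.30 to 3.398 CPM in WT. Cd8b1 stood at 64.6 to 71.4 CPM in HDAC1-cKO and at 45.02 to 57.0 CPM in WT, while Cd8a stayed at or below 2.54 CPM throughout. The part of these marker differences in the Mrp values was not tested. In bulk RNA, a change in the mix of cells and a change per cell cannot be told apart. HDAC1-cKO replicate 2 stood apart. Across 8230 well-expressed genes, its deviation from the 6-library mean tracked transcript GC content (Pearson r = 0.594). In the other libraries r was weaker and negative (from -0.289 to -0.0697), and the mean they are set against includes HDAC1-cKO replicate 2. The main results and single genes that rest on this library are given with and without it. Medians of several gene lists and of the promoter groups are given with all libraries only.

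Mrp transcripts were slightly more abundant in HDAC1-cKO than in WT as a group. By the main edgeR test with all libraries, Mrpl2 was the only Mrp gene past the threshold. DESeq2, limma-voom and some other edgeR settings called more. The 78 Mrp genes together took 0.840, 0.879 and 0.830% of the counts in HDAC1-cKO replicates 1, 2 and 3, against 0.767, 0.694 and 0.697% in WT replicates 1, 2 and 3. Every HDAC1-cKO library thus lay above every WT library, and WT replicate 1 lay closest to the HDAC1-cKO libraries. The summed FPKM (fragments scaled to gene length and library size), which the authors deposited beside the counts, gave the same order, with 6531, 6896 and 6339 FPKM in HDAC1-cKO and 6089, 5537 and 5614 FPKM in WT. Of the 78 genes, 77 passed the filter on low counts. Their log2 fold changes of HDAC1-cKO over WT had a median of 0.19 and a range of -0.31 to 0.62, beside a median of -0.002 over all 15519 genes tested. A positive value was found for 63 of the 77, or 81.8%, against 49.7% of all genes tested.

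Single Mrp genes rarely passed the test. With edgeR's quasi-likelihood test and a Benjamini-Hochberg adjusted p under 0.05 over all genes, 1 Mrp gene was higher and 0 were lower in HDAC1-cKO. Of all genes tested 0.979% were called higher and 0.992% lower, so the share of Mrp genes called was close to the background. At an unadjusted p under 0.05, 18 of the 77 were higher and 0 were lower, against 8.62% of all genes higher and 8.39% lower. DESeq2 called 7 Mrp genes higher and 0 lower (background 4.06% higher and 3.83% lower), and limma-voom with sample weights 9 higher and 0 lower (background 4.81% and 5.17%). In 28 of the 77, or 36.4%, all HDAC1-cKO libraries lay above all WT libraries, which held for 12.7% of all tested genes. In 2 of them, Mrpl33 and Mrpl44, all HDAC1-cKO libraries lay below all WT libraries, against 11.8% of all genes. With upper quartile scaling 2 Mrp genes were called higher (background 1.11% higher and 0.896% lower), with a filter of at least 10 CPM in 3 libraries 5 (2.46% and 2.69%), and at an adjusted p under 0.1 by edgeR 6 (2.61% and 2.66%). On log2(FPKM + 1) limma called 2 (1.4% and 1.27%), on log2(FPKM + 0.1) also 2 (1.36% and 1.26%), and edgeR with a replicate block 0 (0.219% and 0.2%). None of these called a lower Mrp gene. Without HDAC1-cKO replicate 2 the calls were 2 higher and 0 lower (background 1.6% and 2.28%), the median was 0.17 and 59 of 77 values were positive. In that smaller set 41 Mrp genes had every HDAC1-cKO library above every WT library and 9 below, against 20% and 19.4% of all genes. The 95% intervals of all 77 fold changes lay within a 2-fold change in either direction, and the largest upper bound was 0.91 on the log2 scale, for Mrpl12. The standard error had a median of 0.13 over the Mrp genes and of 0.24 over all genes, and Mrp counts ran from 568 reads of Mrps31 to 19302 reads of Mrpl18 in a library.

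**Figure D1:**
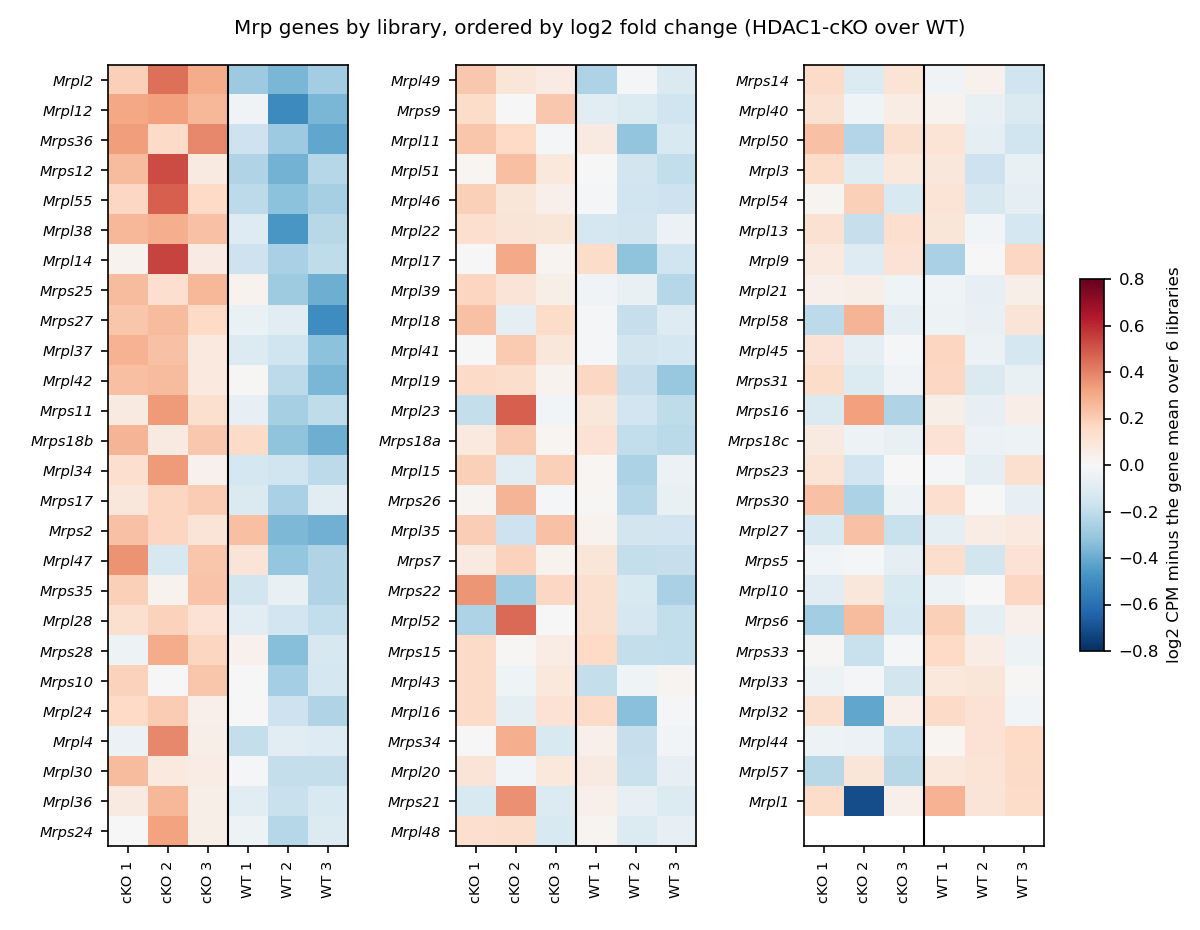
Each row is 1 of the 77 tested Mrp genes, ordered by fold change down the 3 blocks, and each column is a library; colour gives log2 CPM minus the gene's mean over the 6 libraries, with colours ending at 0.8 in either direction. The HDAC1-cKO columns are mostly above and the WT columns mostly below the mean in the first block, WT replicate 1 is less low than the other WT libraries, and HDAC1-cKO replicate 2 holds the strongest colours.

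**Figure D2:**
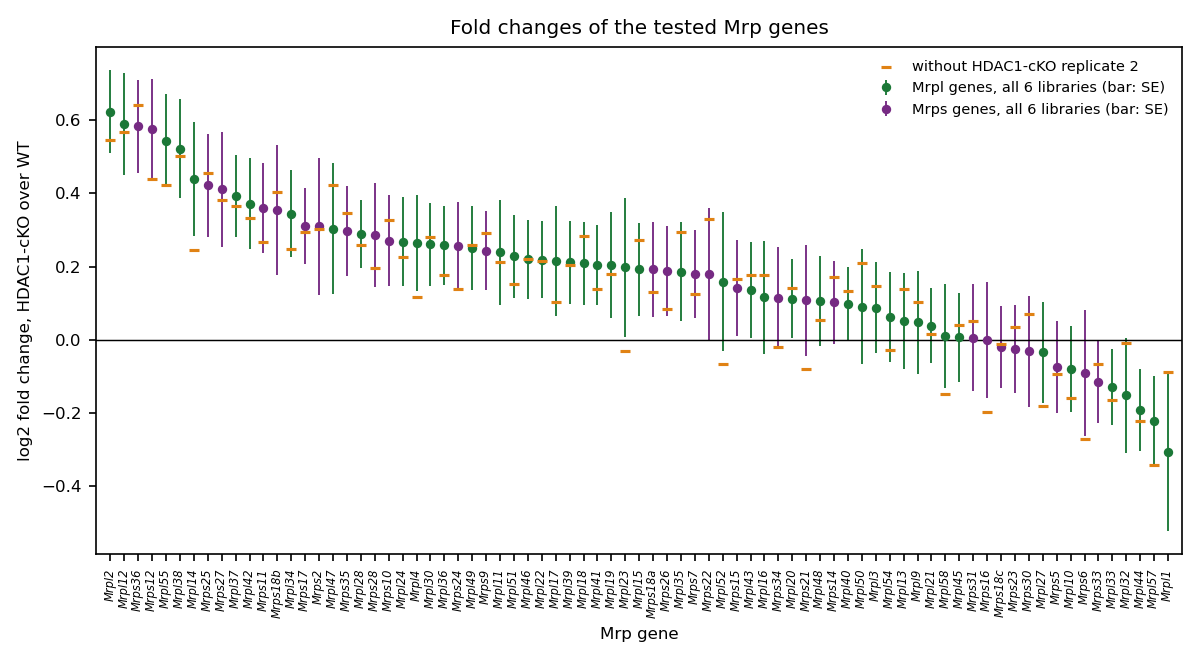
Log2 fold change of HDAC1-cKO over WT for the 77 tested Mrp genes, with points for the fit of all libraries, bars for the standard error and orange dashes for the fit without HDAC1-cKO replicate 2. The points run from 0.62 (Mrpl2) to -0.31 (Mrpl1), and 63 lie above 0.

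Mrpl2 encodes the large-subunit protein that borders the peptidyl transferase centre, a counterpart of a bacterial ribosomal protein (ENSMUSG00000002767, chromosome 17, 46646229 to 46650139, plus strand, GRCm38). It stood at 96.9, 115.5 and 104.5 CPM in HDAC1-cKO replicates 1, 2 and 3, against 69.6, 66.0 and 70.1 CPM in WT replicates 1, 2 and 3. The groups did not overlap, and their gap was wide beside the spread of the WT libraries. Mrpl2 rose by 0.62 ± 0.11 (log2 fold change ± SE) with an edgeR adjusted p of 0.0370. Leaving out HDAC1-cKO replicate 2 gave 0.55, with an edgeR adjusted p of 0.0279. Removing any 1 of the other 5 libraries ended the Mrpl2 call (edgeR adjusted p from 0.0923 to 0.176), although the log2 fold change stayed between 0.58 and 0.68. Those 5 fits called only 0.0925 to 0.161% of all genes higher, against 0.979% with all libraries. No other gene overlaps the exons of Mrpl2, and it shares no stretch of 50 bases, the read length, with another annotated transcript.

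Mrps36 (ENSMUSG00000061474, chromosome 13, 100735955 to 100744659, minus strand) missed the threshold of the main edgeR test with all libraries and passed once HDAC1-cKO replicate 2 was left out. With all libraries, edgeR did call it higher with upper quartile scaling, the 10 CPM filter or offsets for GC content (adjusted p = 0.0497, 0.0357 and 0.0256). DESeq2 and limma-voom called it higher with all libraries (adjusted p = 0.00156 and 0.00746). Its levels were 74.7, 65.8 and 77.2 CPM in HDAC1-cKO and 52.6, 48.3 and 44.3 CPM in WT. HDAC1-cKO replicate 2 was the lowest of the 3 HDAC1-cKO libraries and still lay above all WT libraries. With all libraries the log2 fold change was 0.58 ± 0.13 (SE) at an edgeR adjusted p of 0.0605, and leaving out HDAC1-cKO replicate 2 gave 0.64 at an edgeR adjusted p of 0.0284. Leaving out any other library instead gave an edgeR adjusted p from 0.0976 to 0.233, in fits that called 0.0925 to 0.161% of all genes higher. Mrps36 shares 17.3% of its 50-base stretches with other genes, mostly the pseudogene Mrps36-ps1, so the assignment of part of its reads is uncertain.

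Mrps12, Mrpl12, Mrpl55 and Mrpl38 did not pass the main edgeR test with all libraries or without HDAC1-cKO replicate 2. DESeq2 and limma-voom called all 4 higher with all libraries. With the filter of at least 10 CPM in 3 libraries, edgeR called Mrps12, Mrpl12 and Mrpl55 higher (adjusted p = 0.0430, 0.0409 and 0.0497), but not Mrpl38. With offsets for GC content edgeR called Mrps12 and Mrpl55 higher (adjusted p = 0.0360 and 0.0384). Mrps12, a small-subunit protein at the decoding centre, stood at 191, 230 and 168 CPM in HDAC1-cKO and at 135, 123 and 136 CPM in WT. These groups were apart by 0.58 ± 0.13 in log2 fold change (SE), at an edgeR adjusted p of 0.0724. Mrpl12, part of the flexible stalk that recruits translation factors and a reported partner of the mitochondrial RNA polymerase in human cells, stood at 139, 141 and 135 CPM in HDAC1-cKO and at 110, 78.9 and 87.1 CPM in WT. The HDAC1-cKO libraries lay close together, the WT libraries were spread, and the log2 fold change was 0.59 ± 0.14 (SE, edgeR adjusted p = 0.0758). Mrpl55, a large-subunit protein, stood at 84.8, 105.1 and 84.5 CPM in HDAC1-cKO and at 65.3, 60.2 and 62.8 CPM in WT (0.54 ± 0.13 on the log2 scale, edgeR adjusted p = 0.0724). Mrps12 and Mrpl55 were highest in HDAC1-cKO replicate 2, and without it their log2 fold changes were 0.44 and 0.42 (edgeR adjusted p = 0.0521 and 0.0515). Mrpl38, a protein of the central protuberance, stood at 52.8, 53.7 and 51.7 CPM in HDAC1-cKO and at 40.9, 31.7 and 37.6 CPM in WT (0.52 ± 0.13 on the log2 scale, edgeR adjusted p = 0.0925).

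The promoters of the 4 Mrp genes with the highest fold changes are shown because these genes led the comparison, and each sequence runs from 250 bases before to 10 bases after the RefSeq transcription start on the GRCm38.p6 build, 5′ to 3′ on the gene's strand. Capitals mark matches on either strand to letters of known factors of mitochondrial and growth genes: GCGCA and GCGC with 1 base of any kind between them for NRF1, CCGGAAG for ETS factors such as GABPA, AANATGGCG for YY1 and CACGTG, the E-box that MYC can bind. The windows are chr17:46645979-46646238 (plus strand) for Mrpl2, chr11:120484387-120484646 (plus strand) for Mrpl12, chr13:100744650-100744909 (minus strand) for Mrps36 and chr7:28741812-28742071 (minus strand) for Mrps12.
Mrpl2: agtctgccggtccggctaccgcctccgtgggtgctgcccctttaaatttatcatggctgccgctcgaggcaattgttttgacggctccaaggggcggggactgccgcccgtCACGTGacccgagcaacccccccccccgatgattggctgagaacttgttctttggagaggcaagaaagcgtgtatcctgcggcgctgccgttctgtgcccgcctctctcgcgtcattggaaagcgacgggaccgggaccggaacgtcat
Mrpl12: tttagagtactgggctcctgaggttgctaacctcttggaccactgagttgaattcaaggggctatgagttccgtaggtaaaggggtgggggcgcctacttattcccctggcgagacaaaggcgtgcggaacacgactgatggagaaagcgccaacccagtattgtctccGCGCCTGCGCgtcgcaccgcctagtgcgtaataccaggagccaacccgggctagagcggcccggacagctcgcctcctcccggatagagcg
Mrps36: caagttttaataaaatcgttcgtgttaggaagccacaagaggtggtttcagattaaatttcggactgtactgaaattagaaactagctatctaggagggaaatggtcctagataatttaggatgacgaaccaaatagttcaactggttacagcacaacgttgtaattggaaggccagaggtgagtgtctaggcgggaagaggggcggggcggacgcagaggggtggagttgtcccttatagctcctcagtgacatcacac
Mrps12: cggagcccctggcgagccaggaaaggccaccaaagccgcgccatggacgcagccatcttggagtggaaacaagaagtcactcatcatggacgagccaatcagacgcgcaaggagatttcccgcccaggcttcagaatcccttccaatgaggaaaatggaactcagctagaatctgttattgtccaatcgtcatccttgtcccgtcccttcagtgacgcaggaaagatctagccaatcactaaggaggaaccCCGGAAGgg
The Mrpl2 window holds an E-box from 139 bases before the start, the Mrpl12 window an NRF1 match on the opposite strand from 81 bases before the start, the Mrps12 window an ETS match at the start, and the Mrps36 window none of these letters. A match is a string of letters, not a bound site.

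Across the family, RefSeq windows from 250 bases before to 50 bases after the start were found for 69 of the 78 Mrp genes and for 8935 tested protein-coding genes. The ETS letters were in 34.8% of the Mrp windows against 20.2% of the tested windows, those of NRF1 in 18.8% against 11.3%, those of YY1 in 15.9% against 5.84% and the E-box in 7.25% against 10.4%. Among the tested Mrp genes, the median log2 fold change was 0.16 in the 23 with and 0.21 in the 45 without the ETS letters. It was 0.19 in both the 13 with and the 55 without the NRF1 letters, and 0.26 in the 11 with and 0.18 in the 57 without those of YY1. For the E-box it was 0.26 in the 5 with and 0.19 in the 63 without. These medians are descriptions with no test.

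Many Mrp genes also start close to the start of a gene on the opposite strand. In 33 of the 78, or 42.3%, a protein-coding gene on the opposite strand starts within 1000 bases, against 17.6% of tested protein-coding genes. The distance was taken in either direction, so pairs whose ends overlap are counted along with pairs that point apart. Mrps12 starts 172 bases from Sars2, which encodes the mitochondrial seryl-tRNA synthetase. Sars2 stood at 51.9, 49.8 and 53.3 CPM in HDAC1-cKO and at 55.5, 53.2 and 53.2 CPM in WT, groups that overlapped (log2 fold change -0.06 ± 0.11, SE, edgeR adjusted p = 0.837). Mrpl46 and Mrps11 form a pair within the family, with starts 412 bases apart and log2 fold changes of 0.22 ± 0.11 and 0.36 ± 0.12 (SE, edgeR adjusted p = 0.352 and 0.180). Their exons overlap over 12.2% of the Mrpl46 exon bases, so without strand some of their reads cannot be told apart. Mrpl36 starts 29 bases from Ndufs6, a respiratory complex I gene, with log2 fold changes of 0.26 and 0.32 (edgeR adjusted p = 0.274 and 0.397). Mrpl2 starts 207 bases from the kinesin light chain gene Klc4, whose log2 fold change was 0.19 ± 0.47 (SE, edgeR adjusted p = 0.889).

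Genes with Mrpl and Mrps symbols, which do not divide exactly by subunit, had similar medians. The 48 tested Mrpl genes had a median log2 fold change of 0.20, with 41 positive, and the 29 Mrps genes one of 0.19, with 22 positive; without HDAC1-cKO replicate 2 both medians stood lower, at 0.18 and 0.17. Genes of proteins with a counterpart in the bacterial ribosome (48 tested) had a median of 0.21 and the other 29 one of 0.16. Around the exit tunnel, where the growing chain leaves the large subunit, all 6 genes (Mrpl17, Mrpl22, Mrpl23, Mrpl24, Mrpl45 and Mrpl47) had positive fold changes with all libraries, with a median of 0.22 and edgeR adjusted p from 0.315 to 0.986. Mrpl22 stood at 74.5, 72.9 and 72.5 CPM in HDAC1-cKO and at 61.8, 61.3 and 65.9 CPM in WT, 2 tight groups that did not overlap (log2 fold change 0.22 ± 0.11, SE, edgeR adjusted p = 0.346). Of the 50-base stretches of Mrpl22, 22.4% are shared with Gm6997. Mrpl45, the protein that anchors the ribosome to the inner membrane, stood at 122.9, 107.6 and 112.3 CPM in HDAC1-cKO and at 127.9, 110.1 and 103.2 CPM in WT. These groups overlapped, the log2 fold change was 0.01 ± 0.12 (SE), and it was negative with the GC offsets. Mrpl23 was highest in HDAC1-cKO replicate 2, with 78.2 CPM, while the other 5 libraries held 48.8 to 60.0 CPM; its log2 fold change of 0.20 was -0.03 without that replicate (edgeR adjusted p = 0.673 and 0.935).

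In the central protuberance, the crown of the large subunit, all 5 genes had positive values with a median of 0.21. Besides Mrpl38, these were Mrpl18, Mrpl40, Mrpl46 and Mrpl48, with log2 fold changes from 0.10 to 0.22; with GC and length offsets that of Mrpl40 was -0.03. In the stalk, Mrpl12 stood above Mrpl11, at 0.24 ± 0.14, and Mrpl10, at -0.08 ± 0.12 (SE, edgeR adjusted p = 0.459 and 0.797). Mrpl10 is the base on which Mrpl12 sits, and it stood at 89.3, 101.6 and 87.6 CPM in HDAC1-cKO and at 92.7, 95.1 and 106.9 CPM in WT, so the groups overlapped. The 3 paralogs of MRPS18, which take different places in the ribosome, had log2 fold changes of 0.35 ± 0.18 (Mrps18b), 0.19 ± 0.13 (Mrps18a) and -0.02 ± 0.11 (Mrps18c; SE). Gm16279 covers 30.5% of the exon bases of Mrps18b on the other strand, and Gm43511 covers 23.2% of those of Mrps18c on the same strand. Mrpl3, near the peptidyl transferase centre, differed by 0.09 ± 0.12 (SE). Among small-subunit genes tied to human mitochondrial disease, Mrps16 differed by -0.0005 ± 0.16 and Mrps22 by 0.18 ± 0.18 (SE); Mrps30, of the large subunit, differed by -0.03 ± 0.15 (SE). Mrps16 was highest in HDAC1-cKO replicate 2, at 141.1 CPM against 95.4 to 116.6 CPM in the other 5 libraries, and its log2 fold change without that library was -0.20 (edgeR adjusted p = 0.269). Mrps22 had its lowest value, 78.8 CPM, in HDAC1-cKO replicate 2, and its log2 fold change without it was 0.33 (edgeR adjusted p = 0.213).

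The Mrp genes with negative fold changes lay within 0.31 of 0 on the log2 scale. Mrpl1, which encodes a mobile arm of the large subunit, had the lowest, -0.31 ± 0.22 (SE, edgeR adjusted p = 0.540). It stood at 53.1, 29.3 and 49.5 CPM in HDAC1-cKO and at 58.3, 51.5 and 53.1 CPM in WT, so the value came mostly from HDAC1-cKO replicate 2, without which it was -0.09. Mrpl57 stood at 100.7, 125.5 and 100.9 CPM in HDAC1-cKO and at 124.5, 126.5 and 130.5 CPM in WT. Here HDAC1-cKO replicate 2 lay among the WT libraries, and the log2 difference of -0.22 ± 0.12 (SE, edgeR adjusted p = 0.417) became -0.34 without it (edgeR adjusted p = 0.0611). Mrpl44, a protein with a ribonuclease fold, stood at 67.3, 66.9 and 60.3 CPM in HDAC1-cKO and at 70.03, 74.98 and 77.2 CPM in WT, with no overlap (log2 fold change -0.19 ± 0.11, SE, edgeR adjusted p = 0.446). Mrpl33 stood at 98.7, 100.7 and 91.5 CPM in HDAC1-cKO and at 107.7, 108.4 and 102.0 CPM in WT, likewise with no overlap (-0.13 ± 0.10, SE, edgeR adjusted p = 0.596). Mrps33 differed by -0.12 ± 0.11 (SE, edgeR adjusted p = 0.679).

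Although a ribosome holds its proteins in nearly equal numbers, the messenger levels of the family differed widely. Among the 77 tested genes, FPKM averaged over all libraries ran over a 33.9-fold range, and the median over all 78 was 65.2 FPKM, against 4.52 FPKM over all genes tested. Averaged over all 6 libraries Mrpl42 was the highest, at 364 ± 23.8 FPKM in HDAC1-cKO and 282.5 ± 36.2 FPKM in WT (SD, n = 3). Mrpl18, of which human cells also make a form that joins cytosolic ribosomes under stress, followed at 333 ± 36.7 FPKM in HDAC1-cKO and 289 ± 15.9 FPKM in WT (SD, n = 3), so that these 2 lay within their spread and Mrpl18 had the higher mean in WT. Next came Mrps21, with 250.1 ± 50.1 FPKM in HDAC1-cKO and 233 ± 11.4 FPKM in WT (SD, n = 3). Within their spread, Mrps21 could not be set apart from the next gene, Mrpl54, at 241 ± 25.4 FPKM in HDAC1-cKO and 232 ± 19.6 FPKM in WT. By the mean over all 6 libraries the lowest was Mrps25, at 10.9 ± 0.574 FPKM in HDAC1-cKO and 8.18 ± 1.237 FPKM in WT, then Mrpl47, at 11.7 ± 1.96 FPKM in HDAC1-cKO and 9.46 ± 1.48 FPKM in WT (SD, n = 3). In HDAC1-cKO alone Mrpl1 had the lowest mean, 10.1 ± 2.96 FPKM (SD, n = 3), and the means of Mrps25 and Mrpl47 there lay within that spread. FPKM depend on the length chosen for a gene: the deposited values imply 679 bases for Mrpl42, whose longest annotated transcript has 3277 bases, and 6073 bases for Mrps25. On the CPM scale, which ignores length, Mrps25 stood at 67.3 ± 3.38 CPM in HDAC1-cKO, against 50.2 ± 7.81 CPM in WT (SD, n = 3; log2 fold change 0.42 ± 0.14, SE, edgeR adjusted p = 0.173), and 69.8% of its exon bases are covered on the other strand, mainly by Nr2c2. Mrpl53 had 0 reads in every library. Of its exon bases, 88.0% are also exon of Gm42688 on the same strand, which itself had 2 to 12 reads in the HDAC1-cKO libraries and 16 to 21 in the WT libraries, so this 0 does not show that Mrpl53 is silent.

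**Figure D3:**
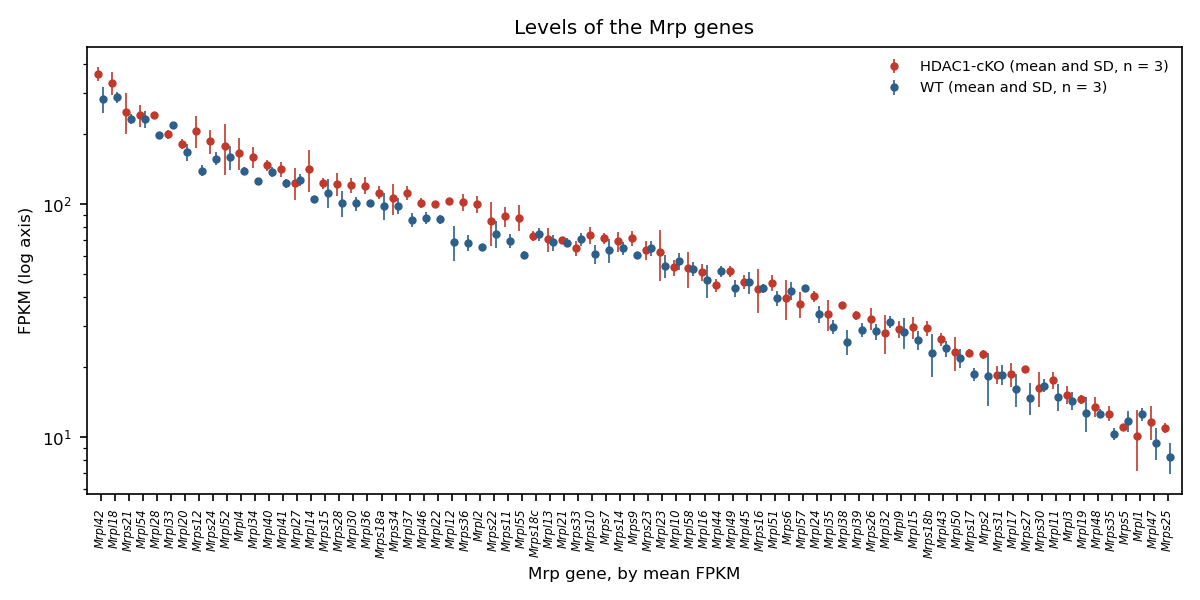
Mean FPKM with SD (n = 3 libraries per genotype) of the 77 Mrp genes with reads, HDAC1-cKO in red left of WT in blue, on a log axis and ordered by the mean over all libraries. Levels fall from above 280 FPKM for Mrpl42 to about 10 FPKM for Mrps25, and most red points lie slightly above their blue partners.

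Genes that work with the mitoribosome gave mixed values, in lists that hold no Mrp gene. The 5 subunit genes with other symbols had log2 fold changes from -0.16 (Dap3) to 0.31 (Gadd45gip1), with a median of 0.15 and 0 called by edgeR, DESeq2 or limma-voom, nor at an unadjusted p under 0.05. Of 26 assembly factors, Mrm1, a methyltransferase of the large ribosomal RNA, rose, while edgeR called 0.979% of all genes higher. It stood at 14.9, 16.0 and 14.5 CPM in HDAC1-cKO and at 7.92, 7.89 and 7.53 CPM in WT, 2 groups well apart (log2 fold change 0.96 ± 0.16, SE, edgeR adjusted p = 0.0332). With HDAC1-cKO replicate 2 left out the Mrm1 call held (edgeR adjusted p = 0.0349), and it ended without any 1 of the other 5 libraries (edgeR adjusted p from 0.0789 to 0.137). Those 5 fits called 0.0925 to 0.161% of all genes higher. Mrm3, which also methylates that RNA, differed by 0.66 ± 0.18 (SE, edgeR adjusted p = 0.115). Without HDAC1-cKO replicate 2, the RNA-binding factor Fastkd2 rose and the helicase Ddx28 fell (log2 fold changes 0.73 and -0.87, edgeR adjusted p = 0.0377 and 0.0362). The background without that library was 1.6% higher and 2.28% lower. The median of the assembly list was 0.07. Of its 26 genes 4 were higher and 1 lower at an unadjusted p under 0.05, against 8.62% and 8.39% of all genes. DESeq2 called Mrm1 and Mrm3 higher and 0 lower (background 4.06% and 3.83%). Limma-voom called Mrm1, Mrm3 and Fastkd2 higher and Ddx28 lower (background 4.81% and 5.17%).

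Among 15 translation factors, 12 had positive values, the median was 0.20, and 0 passed by edgeR. At an unadjusted p under 0.05, 5 were higher and 1 lower, against 8.62% and 8.39% of all genes. DESeq2 called 2 higher and 1 lower (background 4.06% and 3.83%), and limma-voom 4 higher and 1 lower (background 4.81% and 5.17%). These shares of all genes also apply to the synthetase and DNA upkeep lists below. Tufm, the mitochondrial elongation factor that carries aminoacyl-tRNA to the ribosome, stood at 123.9, 139.5 and 130.1 CPM in HDAC1-cKO and at 101.8, 82.99 and 85.9 CPM in WT, with no overlap (log2 fold change 0.54 ± 0.12, SE, edgeR adjusted p = 0.0654). Mtif2, the initiation factor, stood lower, at 25.2, 20.5 and 20.7 CPM in HDAC1-cKO against 29.7, 33.0 and 33.1 CPM in WT (-0.53 ± 0.15, SE, edgeR adjusted p = 0.111). Of 20 genes of mitochondrial aminoacyl-tRNA synthesis, 16 had positive values with a median of 0.17; 0 passed by edgeR or limma-voom and 1, Fars2, by DESeq2, while 4 were higher and 0 lower at an unadjusted p under 0.05. Fars2, the mitochondrial phenylalanyl-tRNA synthetase, differed by 0.52 ± 0.16 (SE, edgeR adjusted p = 0.135). Among 11 genes of mitochondrial DNA upkeep and transcription, 4 had positive values and the median was -0.09; 0 passed by edgeR or DESeq2, limma-voom called 1 higher and 1 lower, and 1 was higher and 1 lower at an unadjusted p under 0.05. Tefm, the elongation factor of mitochondrial transcription, differed by 0.55 ± 0.18 and Mterf1a by -0.37 ± 0.16 (SE, edgeR adjusted p = 0.163 and 0.289).

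The ribosomal RNA that these proteins bind had negative fold changes with all libraries, none past the threshold. Small and large mitochondrial ribosomal RNA, mt-Rnr1 and mt-Rnr2, had log2 fold changes of -0.41 ± 0.25 and -0.29 ± 0.23 (SE, edgeR adjusted p = 0.464 and 0.602). Both were lowest in HDAC1-cKO replicate 2, where mt-Rnr2 stood at 1033 CPM against 1920 to 2139 CPM in the other 5 libraries, and without it the values were -0.17 and -0.04. The 11 tested mitochondrially encoded genes had a median of -0.17 with all libraries and of 0.14 without HDAC1-cKO replicate 2; 0 passed by edgeR, DESeq2 or limma-voom, nor at an unadjusted p under 0.05. Selection of polyadenylated RNA limits what these values say of ribosomal RNA. Among 8 tested transcriptional regulators of mitochondrial genes, the coactivator gene Ppargc1b stood at 1.87, 2.94 and 1.86 CPM in HDAC1-cKO and at 0.234, 0.254 and 0.738 CPM in WT (log2 fold change 2.46 ± 0.56, SE, edgeR adjusted p = 0.0681). Gabpb1, a subunit of the ETS factor GABP, differed by -0.35 ± 0.13 (SE, edgeR adjusted p = 0.229). In this list 0 passed by edgeR, and DESeq2 and limma-voom called 1 higher (background 4.06% and 4.81% higher). At an unadjusted p under 0.05, 1 was higher and 2 lower, against 8.62% and 8.39% of all genes.

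Set beside the families most like it, the Mrp median lay between them with all libraries, but not without HDAC1-cKO replicate 2. The 80 tested nuclear genes of the respiratory chain and ATP synthase had a median log2 fold change of 0.27 with 74 positive, and the 81 tested cytosolic ribosomal protein genes one of 0.06 with 52 positive. Without HDAC1-cKO replicate 2 the 3 medians were 0.1705 for the Mrp genes, 0.1663 for the respiratory chain and -0.01 for the cytosolic ribosomal proteins. The Mrp median was then the highest of the 3, by very little. With all libraries, every HDAC1-cKO library lay above every WT library in 62.5% of the respiratory chain genes. The share was 36.4% of the Mrp genes, 3.70% of the cytosolic ribosomal proteins and 12.7% of all genes. Every HDAC1-cKO library lay below every WT library in 0, 2.60, 2.47 and 11.8% of these 4 sets, in the same order. In the respiratory chain 0 genes passed with all libraries by edgeR. At an unadjusted p under 0.05, 37 were higher and 0 lower, against 8.62% and 8.39% of all genes. DESeq2 called 13 higher (background 4.06%) and limma-voom 14 (background 4.81%). Ndufb6, Ndufa5 and Uqcr11 rose by edgeR without HDAC1-cKO replicate 2 (background 1.6% higher). Among cytosolic ribosomal proteins 0 passed by edgeR or DESeq2, 0 were past an unadjusted p of 0.05, and limma-voom called Rps27l higher. The lowest-p members of these lists were Ndufb6, at 0.46 ± 0.11, Atp5s, at 0.91 ± 0.22, Rps15, at 0.30 ± 0.13, and Rps27l, at 0.26 ± 0.12 (SE, edgeR adjusted p from 0.0695 to 0.336). The differences between these families were not tested.

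**Figure D4:**
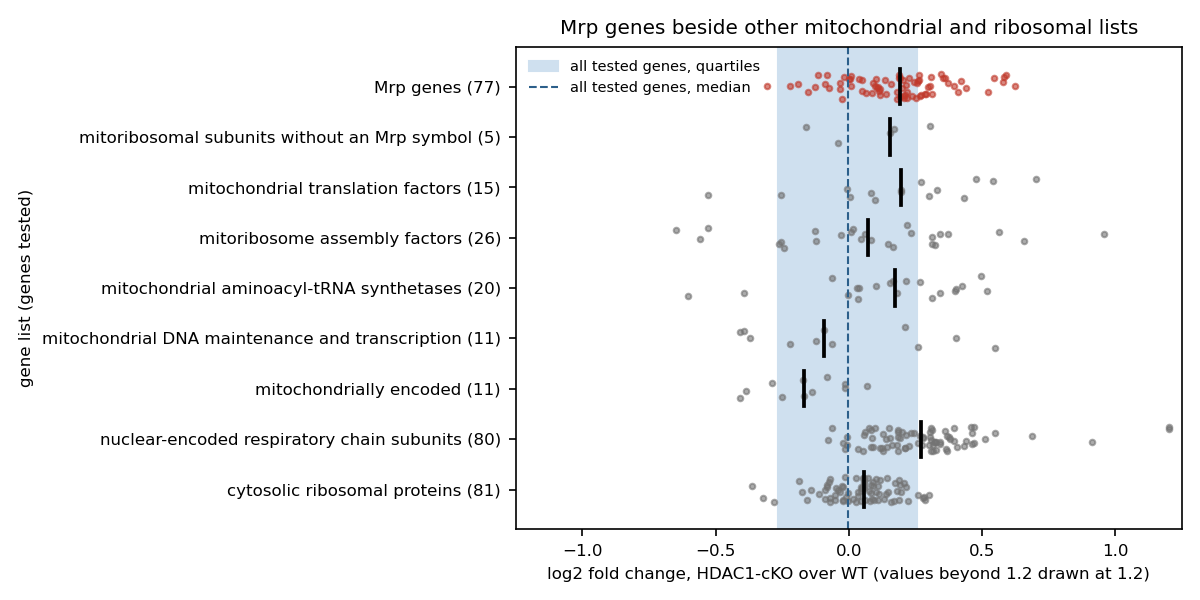
Log2 fold changes of HDAC1-cKO over WT, 1 point per tested gene, for the Mrp genes (red) and the other lists (grey), with a black bar at each list's median and values beyond 1.2 drawn at 1.2; the blue band spans the quartiles of all 15519 genes and the dashed line their median. With all libraries, the Mrp median of 0.19 lies between 0.27 for the respiratory chain and 0.06 for the cytosolic ribosomal proteins, and the mitochondrially encoded genes lie lowest, at -0.17. Without HDAC1-cKO replicate 2, not drawn here, the Mrp median was 0.1705 and that of the respiratory chain 0.1663.

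The library that stood apart moved with GC content inside the family too. Across the 77 tested Mrp genes, the deviation of HDAC1-cKO replicate 2 from the 6-library mean had a Pearson r of 0.622 with GC content, and the other 5 libraries had values from -0.335 to -0.0763. This library was the highest of the 6 for 32 of the 77 genes, and WT replicate 2 the lowest for 30. The fold change itself correlated with GC content across the Mrp genes at r = 0.367 with all libraries and at r = 0.0969 without HDAC1-cKO replicate 2, and with log transcript length at r = -0.182 and -0.0190. Genes of 1 library share its depth and its preparation, so these are descriptions. The median GC content was 49.7% in the Mrp genes and 49.1% in all genes tested, and the median length of the longest transcript 1884 and 2667 bases. When offsets removed each library's trend with GC content, the Mrp median was still 0.19, and 4 Mrp genes were called higher, namely Mrpl2, Mrpl55, Mrps12 and Mrps36 (background 1.61% higher and 1.65% lower). With GC and length offsets the median was 0.16, and Mrpl2, Mrps12 and Mrps36 were called (background 1.35% higher and 1.46% lower).

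**Figure D5:**
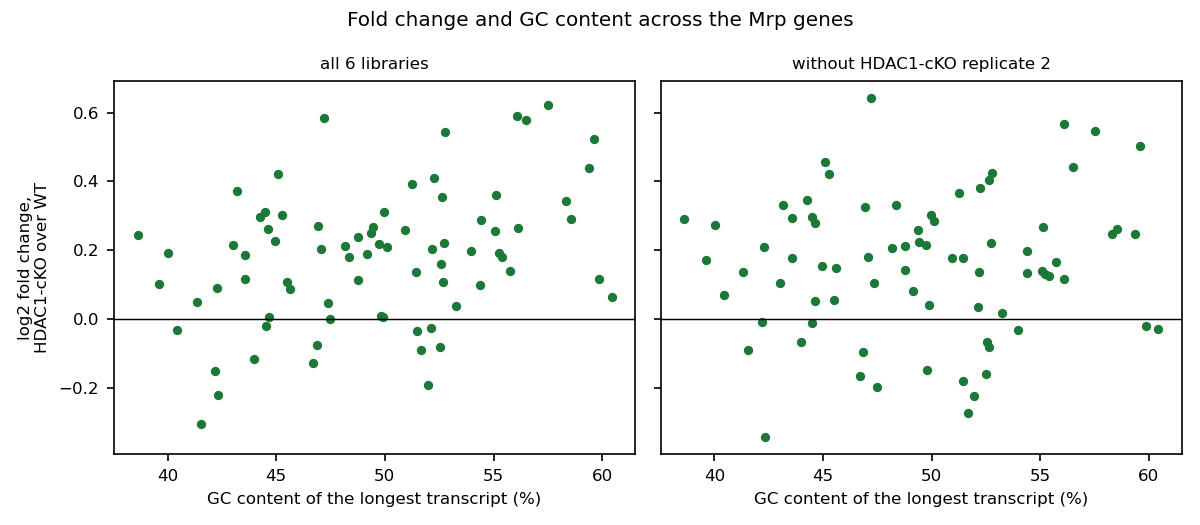
Log2 fold change of HDAC1-cKO over WT against the GC content of the longest transcript for the 77 tested Mrp genes, with all 6 libraries (left) and without HDAC1-cKO replicate 2 (right). The upward drift on the left, r = 0.367, is nearly absent on the right, r = 0.0969, while most points stay above 0 in both.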

How the data were processed

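Per the labels' protocols, RNA of few cells was amplified by Smart-seq2 and made into libraries with Nextera XT, which keeps no strand, and sequencing gave single reads of 50 bases. For every gene the authors deposited a read count (a whole number) and an FPKM value for the same 6 libraries. Per the submitters' processing notes, the tools named are STAR 2.5.2b, Picard 2.19.2, R 3.6.1 and DESeq2 1.24.0; no source used here gives the read counter, its strand setting or its treatment of reads with several matches. The deposited FPKM equalled the counts divided by DESeq2 size factors and by 1 length per gene, which matched the longest GENCODE M21 transcript within 1% for 38 of 77 Mrp genes.

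Here, counts were filtered with edgeR's filterByExpr (15519 genes kept, with at least 99.92% of each library's counts), scaled by TMM and tested with the robust quasi-likelihood F test of edgeR 4.0.16 in R 4.3.3, two-sided, genotype as the term, Benjamini-Hochberg adjusted over all genes tested. Standard errors come from the fold change and its F statistic, and 95% intervals from the same test's degrees of freedom. CPM use TMM-scaled totals. DESeq2 1.42.0 and limma 3.58.1 (limma-voom) gave alternatives; code was checked on simulated data. Reads carry no molecular identifiers, so intervals cover the spread between libraries and not the number of molecules. The series text calls the replicates biological. Replicate numbers are in the labels of both genotypes. Same-numbered libraries deviated together with r = 0.208, 0.00654 and -0.14 in replicates 1, 2 and 3, which cannot decide whether they were paired. The main test did not treat them as pairs, and a fit with a replicate block is given beside it.

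The members, the lists and their tests were chosen with earlier results of these data known. The genes to be named were the Mrp genes called with all libraries or without HDAC1-cKO replicate 2, the 5 with the lowest p in each direction, the 3 highest and 3 lowest by FPKM, members by structural role, and in the other lists up to 4 called genes or the 2 with the lowest p. Mrpl54, Klc4, Ndufs6, Mrps11 and other genes outside this rule were named after their values were seen. Promoter sequences are RefSeq's, on GRCm38.p6, taken at the start nearest to the deposited gene's start; overlaps and shared 50-base stretches come from GENCODE M21 on GRCm38. A gene that the rule names is not reported here. Figures were drawn with matplotlib 3.10.9.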

Additional observations from a re-analysis of the deposited data

How the results depend on the processing

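The median log2 fold change of the tested Mrp genes stayed positive under every alternative and moved by less than 0.0722. That value is the SD, between libraries of a genotype, of each library's median Mrp deviation from the gene means on the log2 scale. When 1 library was left out, the median fold change ran from 0.139 to 0.241. The number of Mrp genes called higher, 1 in the main analysis, was 2 with upper quartile scaling and with limma on log2(FPKM + 1) or log2(FPKM + 0.1), 5 with a filter of at least 10 CPM in 3 libraries, 7 with DESeq2, 9 with limma-voom, 4 with GC offsets, 3 with GC and length offsets, 6 at an adjusted p under 0.1, and 0 to 2 without 1 library. The number called lower was 0 throughout. Over all genes, 152 were higher and 154 lower; 704 and 664 were with DESeq2, 747 and 802 with limma-voom, 250 and 256 with GC offsets, 405 and 413 at an adjusted p under 0.1, and 243 were lower with no low-count filter. Without 1 library, 15 to 258 were higher and 10 to 368 lower. Leaving out HDAC1-cKO replicate 2 gave the highest of these numbers. Leaving out any other library gave 15 to 26 higher and 10 to 23 lower genes, with 0 Mrp genes called. The cause of these differences was not tested.

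With a replicate block, 0 Mrp genes and 34 higher and 31 lower genes were called, and Mrpl2 had an edgeR adjusted p of 0.103. The replicate numbers alone do not say whether libraries were paired. HDAC1-cKO replicate 2 correlated best with WT replicate 3 (r = 0.209) and HDAC1-cKO replicate 3 with WT replicate 2 (r = 0.0763). HDAC1-cKO replicate 1 correlated best with WT replicate 1 (r = 0.208). These values were taken around the mean of only 3 libraries per genotype, so they cannot decide whether libraries were paired.

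Of 561 values of 33 named Mrp genes under 17 alternatives, 503 kept direction and side of the threshold. With the same direction, 24 gained a call and 6 lost one. The other 28 changed sign, in 7 genes (Mrpl23, Mrpl40, Mrpl45, Mrps16, Mrps18c, Mrps21 and Mrps30) whose log2 fold changes in the main analysis lay between -0.03 and 0.20. With GC and length offsets the log2 fold changes were -0.034 for Mrpl40, -0.0307 for Mrpl45, 0.0135 for Mrps16, -0.0291 for Mrps21 and 0.16 for Mrps30, and with GC offsets -0.0102 for Mrpl45, 0.0259 for Mrps16, 0.0623 for Mrps18c and 0.141 for Mrps30. Upper quartile scaling gave 0.0374 for Mrps16 and 0.0143 for Mrps18c, the 10 CPM filter 0.0152 for Mrps16, no filter -0.0151 for Mrpl45, and limma-voom -0.0188 for Mrps21 and 0.041 for Mrps30. Leaving out 1 library changed the sign of Mrpl23 (range -0.0319 to 0.328), Mrpl45 (-0.0631 to 0.0899), Mrps16 (-0.197 to 0.108), Mrps18c (-0.0666 to 0.0255), Mrps21 (-0.0804 to 0.187) and Mrps30 (-0.174 to 0.071).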
